A study of Homo sapiens with 6 samples.

Results

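Long intergenic noncoding RNA genes, which carry the symbol LINC and a number when no other name has been given to them, were examined for their response to loss of MyoD in rhabdomyosarcoma cells. The array annotation gave such a symbol to 536 of 22448 measured genes. Of these, 200 had a mean log2 level of 4.3 or more over the 6 arrays and are called the expressed LINC genes here, and 336 lay below that level. A gene with more than 1 transcript cluster, the unit that the array summarises, was read from its cluster with the highest mean. The members were therefore chosen by level, so that the levels themselves are a description, and the 200 are not all LINC genes of the array. The limit lies close to the median of all transcript clusters (4.295). Detection was not judged, so that the word expressed names a level here and does not show that a gene was transcribed. Just inside the limit were LINC00475 (4.3), LINC00987 (4.34) and LINC00658 (4.35), and just outside it LINC00242 (4.28), LINC02891 (4.25) and LINC00489 (4.25).

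All arrays were of RH30, an established human line of fusion-positive (alveolar) rhabdomyosarcoma, a tumour of the skeletal muscle lineage. The cells of both groups expressed the IκBα super-repressor, which blocks NF-κB, and are named RH30-SR. RH30-SR cells without the deletion (n = 3) were compared with RH30-SR MyoDΔ cells (n = 3), in which the MyoD gene had been deleted with CRISPR/Cas9. The MyoDΔ arrays were all of 1 clone, number 29, so that clone and deletion cannot be told apart, and the labels do not state whether the control cells carried Cas9 or a guide RNA. The labels give no separate origin to the replicates of a group, so that p values measure only the spread between these arrays.

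MyoD belongs to the basic helix-loop-helix transcription factors, drives cells into the muscle lineage and binds the E-box, the sequence CANNTG. Long noncoding RNAs are transcribed and processed much like messenger RNAs but are not known to encode a long protein. Some act in the nucleus on chromatin or on genes near their own, some act in the cytoplasm, a few turned out to encode micropeptides, and for most no function is known. Many are made at low levels and in few cell types, and several are known to act in muscle differentiation.

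The targeted gene followed the labels. MYOD1 measured 9.09, 9.50 and 9.43 in RH30-SR replicates 1 to 3 and 6.95, 7.16 and 6.90 in the MyoDΔ replicates, a log2 fold change of -2.34 ± 0.12 (SE) with an adjusted p of 1.02e-04 (limma). DES, the muscle intermediate filament protein desmin, went from 10.79 to 8.73, and MYOG, the muscle transcription factor myogenin, from 8.17 to 5.47. Of the other markers fixed for this tumour and muscle, FGFR4 (-1.02) and CHRNG (-0.72) fell and PAX3 rose (0.57), while FOXO1 (0.27) and MYH3 (-0.10) were not called. Markers of other cells were little changed for the most part, but not all were low. PTPRC of leukocytes measured 2.30 in RH30-SR and 2.33 in MyoDΔ cells, and EPCAM of epithelium 2.80 and 2.75. CD79A of leukocytes measured 5.28 and 5.33, and RBFOX3 of neural cells 5.02 and 5.04. KRT19 of epithelium was at 4.95 and 4.93, and VWF of endothelium at 4.80 and 4.83. CD68 rose from 6.21 to 7.10 and PECAM1 fell from 4.05 to 3.57. Whether these markers have a part in the values of the LINC genes was not tested. Over all clusters, r was 0.994 to 0.997 within a group and 0.989 to 0.992 between groups.

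A small number of the expressed LINC genes differed between RH30-SR and MyoDΔ cells. A gene was called when its Benjamini-Hochberg adjusted p in the limma fit was below 0.05 and its fold change over 25%. By this rule 20 of the 200 were called, 12 higher and 8 lower in MyoDΔ cells, and 180 were not called. This is 10.0% of the members, against 9.31% of all genes with a level of 4.3 or more and 7.01% of all genes, so that the total was near the background. The split was 6.0% higher and 4.0% lower among the members, against 3.71% and 5.6% among genes with a level of 4.3 or more. Of the long noncoding RNA genes by RefSeq at that level, 49 of 845 (5.8%) were called, and of the protein-coding genes 10.1%. The 845 include most of the members, 180 under a current and 10 under a former name, and are not a separate background. Past a 2-fold change the members had 1 gene higher (0.5%, against 0.254% of genes at that level) and 4 lower (2.0%, against 0.774%). Of these 4, LINC00341 and LINC02872 met the level limit only through the RH30-SR arrays, with MyoDΔ means of 3.69 and 3.94.

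Most members barely moved. The median log2 fold change was 0 to 2 decimals, as against -0.01 for genes with a level of 4.3 or more, with quartiles of -0.07 and 0.08 and a range of -1.55 to 1.27, and 165 of the 200 lay between -0.2 and 0.2. The arrays of the groups did not overlap for 50 members (25%, against 43.0% of genes at that level), all 20 called members among them. An unadjusted p below 0.05 was reached by 45 members (22.5%, against 31.5%). The members were dimmer than other genes above the limit, with a median level of 5.04 against 6.16, and the SD of their RH30-SR arrays was larger, with a median of 0.08 against 0.06. Both group means reached 4.3 for 195 members. Of the 5 for which 1 group was below it, 2 were called, LINC00341 and LINC02872, which met the limit through the RH30-SR arrays.

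**Figure D1:**
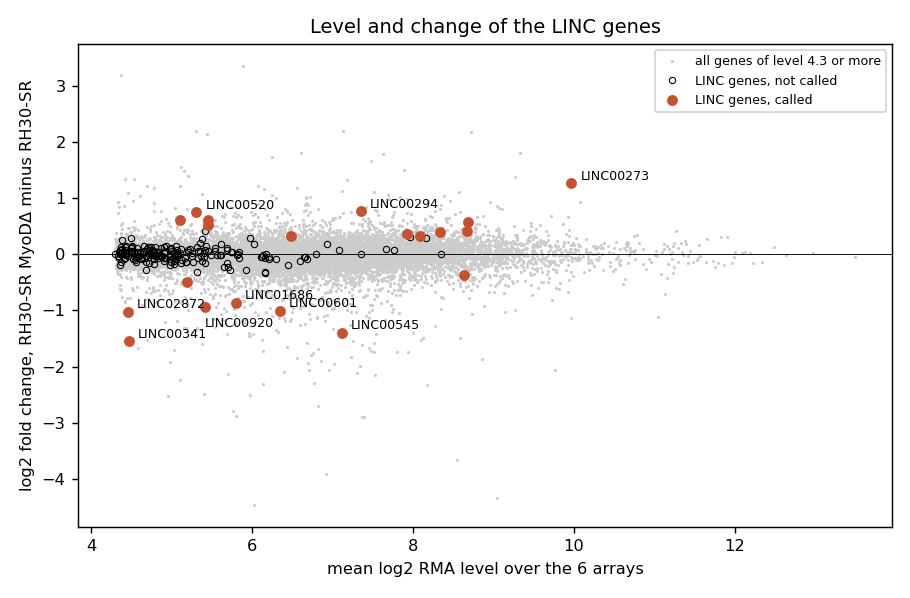
Mean log2 RMA level over the 6 arrays (x axis) and log2 fold change of MyoDΔ minus RH30-SR (y axis) for all 15760 genes with a level of 4.3 or more (grey), the 180 LINC genes not called (open circles) and the 20 called (filled). Most open circles lie near 0 at levels below 6, and the filled circles run from LINC00341 at -1.55 to LINC00273 at 1.27.

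The largest fall was that of LINC00341, which measured 5.05, 5.41 and 5.26 in RH30-SR arrays and 3.66, 3.75 and 3.66 in MyoDΔ arrays. Every MyoDΔ value lay far below every RH30-SR value, a log2 fold change of -1.55 ± 0.09 (SE) with an adjusted p of 1.97e-04 (limma). RefSeq lists LINC00341 as a former name of SYNE3, which encodes nesprin-3, a protein of the outer nuclear membrane that links the nucleus to intermediate filaments. The array holds a separate cluster under the symbol SYNE3, singled out after its values were seen, which went from 6.07 to 5.58, a change of -0.49 ± 0.05 with an adjusted p of 0.00292 (limma). In the current annotation this symbol therefore stands for a protein-coding gene. In all, 20 of the 200 symbols are former names, of which 10 now belong to long noncoding RNA genes, 8 to protein-coding genes and 2 to pseudogenes, and LINC00341 was the only called member among the 10 that are no longer noncoding genes.

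LINC00545 had the second largest fall. It measured 7.81, 7.81 and 7.82 in RH30-SR cells, almost the same value in each array, and 6.44, 6.27 and 6.52 in MyoDΔ cells. The groups were far apart, with a log2 fold change of -1.40 ± 0.07 and an adjusted p of 9.54e-05 (limma). LINC00601 was as tight within its groups, at 6.82, 6.92 and 6.80 against 5.82, 5.86 and 5.84, a change of -1.01 ± 0.05 (adjusted p = 1.16e-04, limma). LINC02872 measured 4.98, 4.78 and 5.13 against 3.71, 4.19 and 3.92 and fell by 1.02 ± 0.14 on the log2 scale (adjusted p = 0.00679, limma). Its MyoDΔ arrays were the more spread, yet all lay below the RH30-SR arrays.

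Smaller falls were measured for 4 further members. LINC00920 gave 5.77, 5.97 and 5.91 in RH30-SR cells and 4.99, 5.08 and 4.75 in MyoDΔ cells (-0.94 ± 0.10, adjusted p = 0.00227, limma). LINC01686 gave 6.12, 6.19 and 6.38 against 5.26, 5.36 and 5.47 (-0.87 ± 0.09, adjusted p = 0.00194, limma). In both, the highest MyoDΔ array was below the lowest RH30-SR array by more than the range of either group. LINC00526, at 5.30, 5.57 and 5.44 against 4.97, 4.98 and 4.89, changed by -0.49 ± 0.08 (adjusted p = 0.0128, limma), and LINC03033, at 8.94, 8.67 and 8.85 against 8.45, 8.44 and 8.48, by -0.36 ± 0.08 (adjusted p = 0.0367, limma). The calls of both depended on single arrays. That of LINC00526 was lost without RH30-SR replicate 3 (adjusted p = 0.053) or MyoDΔ replicate 3 (0.0596), and that of LINC03033 when RH30-SR replicate 1 (0.0898) or 3 (0.116) or MyoDΔ replicate 1 (0.112), 2 (0.125) or 3 (0.108) was left out.

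Among the genes that rose, LINC00273 had the highest level of all members and the largest change, but the least even arrays. It measured 8.98, 9.57 and 9.45 in RH30-SR cells and 11.10, 10.72 and 9.98 in MyoDΔ cells. The groups were separate, while the MyoDΔ arrays alone spanned more than a log2 unit, and the change of 1.27 ± 0.29 had an adjusted p of 0.0491 (limma), just under the limit. The call was lost without any one of RH30-SR replicates 1, 2 and 3 (adjusted p = 0.126, 0.094 and 0.113) and without MyoDΔ replicate 1 or 2 (0.114 and 0.153), and also after quantile normalization (0.0544), median centring (0.0528) or cyclic loess (0.0619). A second cluster of the same symbol, at a level of 5.96 in RH30-SR and 5.87 in MyoDΔ cells, changed by -0.09 ± 0.07 with an adjusted p of 0.586 (limma). LINC00273 was thus called on 1 of its 2 clusters, and was the only one of 11 members with more than 1 cluster whose clusters differed in the call.

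LINC00294 rose evenly. It measured 6.98, 6.92 and 7.01 in RH30-SR cells and 7.71, 7.75 and 7.76 in MyoDΔ cells, with a change of 0.77 ± 0.05 and an adjusted p of 2.91e-04 (limma), and the distance between the groups was many times the range within them. LINC00520, a noncoding RNA studied mostly in carcinomas, measured 4.94, 4.98 and 4.88 against 5.80, 5.56 and 5.68 (0.75 ± 0.07, adjusted p = 0.00167, limma). LINC00941, also studied in carcinomas, measured 4.86, 4.66 and 4.85 against 5.41, 5.33 and 5.48 (0.62 ± 0.07, adjusted p = 0.00435, limma). All MyoDΔ arrays of both genes lay above all RH30-SR arrays.

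LINC01554, which has been studied in liver cancer, measured 5.13, 5.10 and 5.21 in RH30-SR cells and 5.85, 5.71 and 5.70 in MyoDΔ cells (0.61 ± 0.06, adjusted p = 0.0023, limma). LINC02901 measured 5.24, 5.11 and 5.22 against 5.65, 5.75 and 5.76 (0.53 ± 0.06, adjusted p = 0.00351, limma). LINC00707, which has been studied in carcinomas, measured 8.45, 8.31 and 8.42 against 8.85, 9.02 and 9.03 (0.57 ± 0.07, adjusted p = 0.00484, limma). In each of the 3 the range within either group was far smaller than the change.

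The remaining 5 rises were small. LINC01000 went from a mean of 8.46 to 8.89 (0.42 ± 0.06, adjusted p = 0.00978, limma) and LINC00265 from 8.13 to 8.53 (0.40 ± 0.06, adjusted p = 0.011, limma). LINC01061 went from 7.75 to 8.11 (0.37 ± 0.07, adjusted p = 0.0263, limma), LINC01001 from 7.92 to 8.25 (0.33 ± 0.05, adjusted p = 0.0109, limma) and LINC01881 from 6.32 to 6.65 (0.33 ± 0.07, adjusted p = 0.0383, limma). The arrays of the groups did not overlap in any of the 5, but several changes sat close to the 25% limit. LINC00265 lost its call without MyoDΔ replicate 2 or 3 (adjusted p = 0.0544 and 0.0521). LINC01001 lost it without either of the same arrays (0.0519 and 0.0555) and, by the size of the change, without RH30-SR replicate 2 (0.30) and after quantile normalization, cyclic loess or array weights (each 0.31). For LINC01881 the adjusted p was 0.106 and 0.0823 with RH30-SR replicate 1 or 2 left out, and 0.0799, 0.137 and 0.123 with MyoDΔ replicate 1, 2 or 3 left out. Its call was also lost after median centring (0.0577) and, by the size of the change (0.30), with array weights. LINC01061 lost it without any 1 array, with an adjusted p between 0.0534 and 0.104, except that without RH30-SR replicate 2 the adjusted p was 0.0474 and the change, 0.31, was under the limit.

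RH30-SR replicate 2 was the lowest array of its group in 10 of the 12 genes that rose, and in 80 of all 200 members. Its distance from the mean of the other RH30-SR arrays had a median of -0.12 over the genes that rose, 0.05 over those that fell and 0.00 over all members. Without this array 16 members were called, 8 higher and 8 lower. With all arrays in the fit the counts had been 12 and 8.

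**Figure D2:**
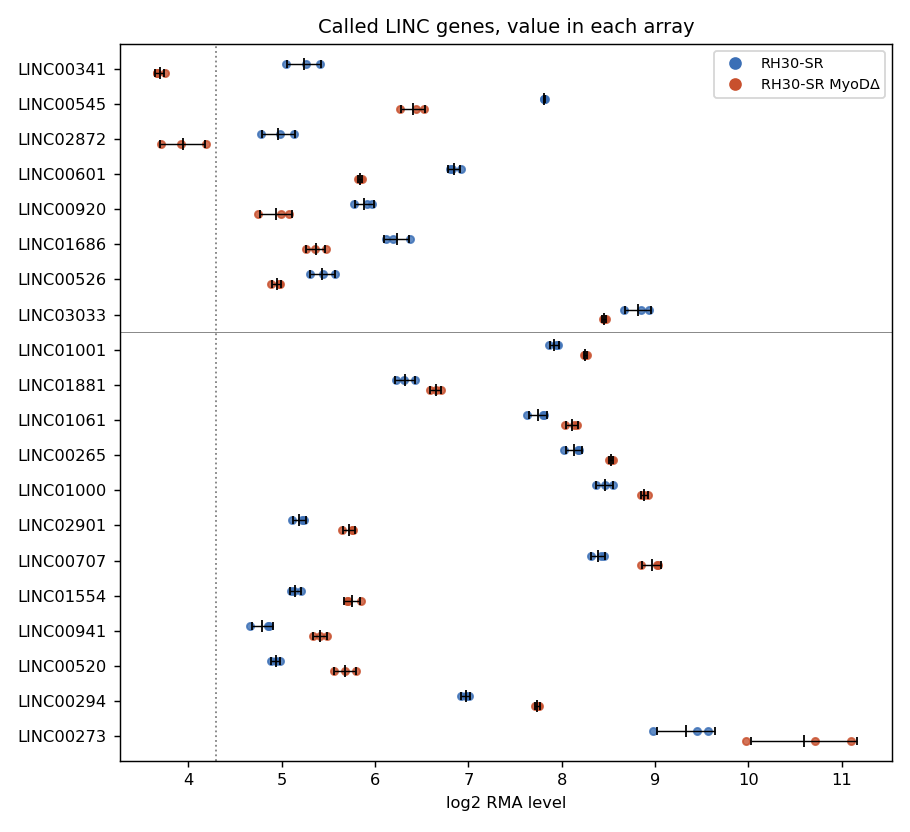
Log2 RMA level of each of the 20 called LINC genes in each array (points, RH30-SR blue and MyoDΔ orange), with the mean (vertical tick) and SD (horizontal bar) of each group of 3; the dotted line is the level limit of 4.3, and the 8 genes above the grey line fell. The groups are separate for every gene, widely so for LINC00341 and LINC00545 and narrowly for LINC01881, LINC03033 and LINC01061.

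Calls were unevenly spread over levels. Of 93 members between 4.3 and 5, 2 were called (2.15%, against 3.84% of all genes of that level). Both of them, LINC00341 and LINC02872, met the level limit only through the RH30-SR arrays. Between 5 and 6 there were 7 of 71 (9.86%, against 5.97%). Between 6 and 7, 2 of 20 were called (10.0%, against 10.6%), and at 7 or more 9 of 16 (56.2%, against 14.6%). Of these 9, 7 were higher and 2 lower in MyoDΔ cells, and 13 of the 16 had a change above 0. LINC01001 and LINC01061, whose near-identical start regions are described below, are both among the 9. The number called at 7 or more moved with single arrays. It was 4 of 16 (25%, against 9.88% of all genes) without MyoDΔ replicate 2, 5 (31.2%, against 9.91%) without MyoDΔ replicate 3 and 6 or 7 without any other array. It was 7 after quantile normalization or cyclic loess, 8 after median centring or with array weights, and 5 (31.2%, against 10.5%) with the replicate block. Between 6 and 7 it was 1 without RH30-SR replicate 1 or 2 or any MyoDΔ replicate. The median level was 7.64 for the members that rose and 5.60 for those that fell, and the median change 0.55 and -0.98. Levels come from different probes, so that they do not rank the genes by RNA amount.

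**Figure D3:**
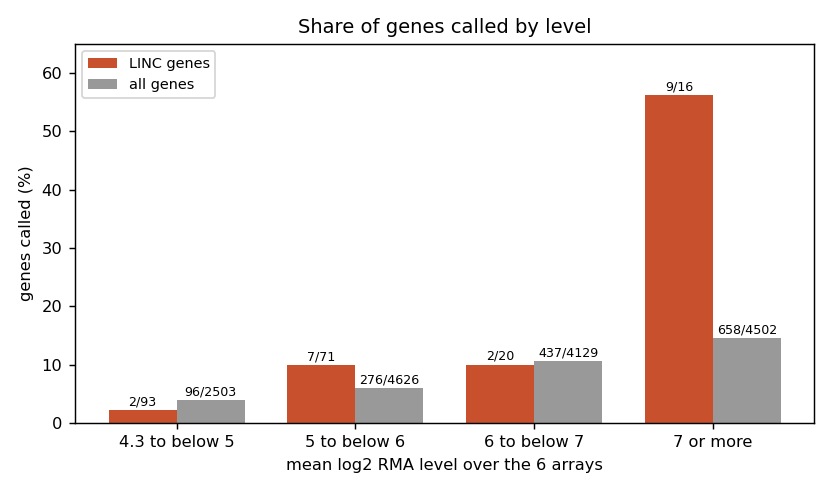
Percent of genes called (y axis, from 0) in 4 bins of mean log2 RMA level (x axis) for LINC genes (orange) and all genes (grey), with the number called over the number in the bin above each bar. Below 7 the LINC and all-gene bars stand, from the lowest bin up, at 2.15% and 3.84%, 9.86% and 5.97%, and 10.0% and 10.6%. At 7 or more they stand at 56.2% and 14.6%, the former resting on 16 LINC genes and falling to 4 called without MyoDΔ replicate 2.

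Other members of high level did not pass the test. LINC00963 had 8.33, 8.34 and 8.34 in RH30-SR cells and 8.41, 8.34 and 8.29 in MyoDΔ cells, a change of 0.01 ± 0.05 (adjusted p = 0.952, limma). LINC00152, now named CYTOR, a cytoskeleton regulator RNA, changed by 0.09 ± 0.08 (adjusted p = 0.646, limma) from a mean of 7.61. The values of both groups overlapped in each. LINC01002, also of high level and not called, is described in the next paragraph. LINC00999, at 0.30 ± 0.06 (adjusted p = 0.0398, limma), was the only member that passed on the adjusted p and not on the fold.

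LINC01061, LINC01001 and LINC01002 had near-identical start regions, which bears on how far their values are separate measurements. Of 11175 pairs of members with a RefSeq promoter window (250 bases before to 50 after the start), 4 aligned at 80% identity or more over at least 200 bases, and 3 of the 4 were the pairs of these genes. LINC01001 and LINC01061 were 97.3% identical over 257 aligned positions, LINC01002 and LINC01061 98.2% over 275, and LINC01001 and LINC01002 98.7% over 233. The genes lie on chromosomes 11, 4 and 19. LINC01002, which is among the members of highest level, changed by 0.30 ± 0.07 (adjusted p = 0.0517, limma), beside 0.33 for LINC01001 and 0.37 for LINC01061. Without RH30-SR replicate 1 the change of LINC01002 was 0.36 (adjusted p = 0.0258, limma). Whether probes of one read the transcripts of another was not tested. The fourth pair, LINC00623 and LINC00875 (98.6% over 218), was not called. The windows are shown from RefSeq (GRCh38.p14) to let the likeness be seen, 5′ to 3′ on the gene's own strand, with capitals in LINC01001 and LINC01002 for bases that differ from, or have no partner in, LINC01061, which lies at chr4:119410611-119410910 (minus strand). LINC01001 is from chr11:131804-132103 and LINC01002 from chr19:202160-202459, both on the minus strand.
LINC01061: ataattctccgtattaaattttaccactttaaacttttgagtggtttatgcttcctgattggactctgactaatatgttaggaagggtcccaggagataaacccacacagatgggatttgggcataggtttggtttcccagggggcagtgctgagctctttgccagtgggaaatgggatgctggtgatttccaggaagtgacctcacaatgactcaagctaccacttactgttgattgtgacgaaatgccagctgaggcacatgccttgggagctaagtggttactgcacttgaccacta
LINC01001: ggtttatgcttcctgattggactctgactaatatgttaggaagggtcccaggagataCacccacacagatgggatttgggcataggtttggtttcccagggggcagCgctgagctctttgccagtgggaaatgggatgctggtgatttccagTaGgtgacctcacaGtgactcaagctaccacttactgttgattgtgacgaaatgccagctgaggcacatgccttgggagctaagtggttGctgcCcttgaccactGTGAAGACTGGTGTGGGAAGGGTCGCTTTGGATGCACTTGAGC
LINC01002: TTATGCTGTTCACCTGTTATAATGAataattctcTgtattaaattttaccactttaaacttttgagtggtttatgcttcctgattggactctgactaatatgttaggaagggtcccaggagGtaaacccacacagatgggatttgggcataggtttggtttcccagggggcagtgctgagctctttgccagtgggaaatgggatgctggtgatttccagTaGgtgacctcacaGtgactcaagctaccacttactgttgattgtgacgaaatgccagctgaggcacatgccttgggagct

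Many noncoding genes lie next to a protein-coding gene, and the nearest protein-coding gene on each side in RefSeq order was read for each member where the array measured it. The 17 called members with such a neighbour had 33 neighbouring genes, of which 9 (27.3%) were called. Of all 17183 protein-coding genes measured 8.18% were called, and of those with a level of 4.3 or more 10.1%. Of the 277 neighbours of members not called, 26 (9.39%) were called. In 8 of the 9 called neighbours of called members the change had the direction of the LINC gene. Other neighbours had an adjusted p below 0.05 (limma) but a change under the fold limit. Of these, GLRX5 fell beside LINC00341 (-0.29). CLMN beside LINC00341 (0.31) and DAPK1 beside LINC02872 (0.21) rose while the LINC gene fell. Among members not called, 29 pairs held a called neighbour and 15 of these shared the sign. Neighbours were read on the same arrays as the LINC genes, and these counts are descriptions with no test. RefSeq spans of the called members overlapped none of these coding neighbours.

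Beside genes that fell, LINC01686 lies next to RGS16, which dampens G protein signalling, and RGS16 went from 6.39 to 5.19 (-1.20 ± 0.05, adjusted p = 5.1e-05, limma). LINC00545 lies next to MEDAG, an adipogenesis gene, which went from 6.96 to 5.83 (-1.13 ± 0.08, adjusted p = 3.17e-04, limma). MEDAG is also the next coding gene of LINC00398, which was not called (-0.12). LINC02872 lies next to GAS1, a Hedgehog co-receptor, which changed by -0.65 ± 0.08 (adjusted p = 0.00589, limma). LINC00601 lies next to ADAM12, a membrane protease of muscle and mesenchymal cells, which changed by -0.55 ± 0.05 (adjusted p = 9.91e-04, limma). These 4 pairs fell together.

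Beside genes that rose, LINC01554 lies next to ELL2, a transcription elongation factor, which went from 7.15 to 8.22 (1.06 ± 0.06, adjusted p = 1.62e-04, limma). LINC00294 lies next to TCP11L1, which changed by 0.64 ± 0.06 (adjusted p = 0.00186, limma), and LINC02901 next to EZR, or ezrin, which ties the membrane to actin (0.44 ± 0.05, adjusted p = 0.00253, limma). LINC00941 lies next to CAPRIN2, an RNA-binding protein (0.39 ± 0.06, adjusted p = 0.0122, limma), a call lost without MyoDΔ replicate 2 or 3 (adjusted p = 0.0586 and 0.0583). The exception in sign was HIF1A, the hypoxia factor beside LINC03033, which rose by 0.41 ± 0.08 (adjusted p = 0.0276, limma) while LINC03033 fell, and whose adjusted p was 0.0542 and 0.0555 with RH30-SR replicate 1 or 3 left out and 0.0549, 0.103 and 0.106 with MyoDΔ replicate 1, 2 or 3 left out.

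**Figure D4:**
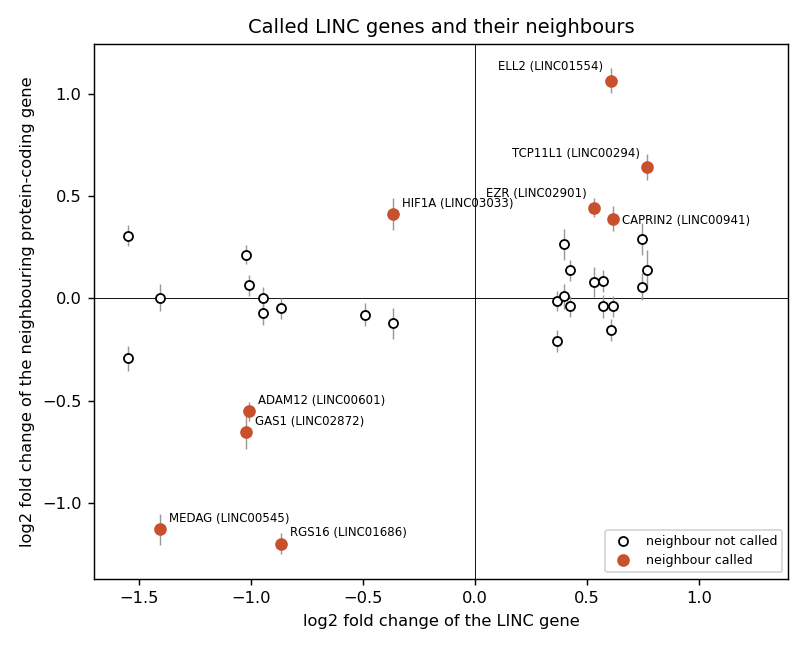
Log2 fold change of each of the 17 called LINC genes with a measured neighbour (x axis) and of the protein-coding gene next to it (y axis, bars show SE), 33 pairs in all, with filled points for the 9 called neighbours. Filled points lie at the lower left and upper right, except HIF1A.

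Promoter windows were given for 150 members, 15 of them called, 7 that rose and 8 that fell. Of these windows 142 were of genes that RefSeq lists as long noncoding. The others were of coding genes or pseudogenes for which the symbol is a former name. The E-box, searched as CANNTG (the same on both strands), stood in 71.3% of member windows and 68.9% of 27305 windows of the same length. It stood in 5 of the 7 that rose and 7 of the 8 that fell. CAGCTG, an E-box that MyoD prefers, stood in 26.0% of member windows and 17.7% of all, with 2 of 7 and 3 of 8 among the called. The 2 among genes that rose were the near-identical windows of LINC01001 and LINC01061. CACCTG (searched on both strands) stood in 26.0% and 20.6%, with 1 of 7 and 2 of 8. Windows rich in CpG (observed over expected above 0.6 and GC above 50%) made up 35.3% of those of the members, 46.8% of all windows and 63.2% of those of protein-coding genes, and 4 of the 7 that rose and 4 of the 8 that fell. A match is a run of letters and not a binding site.

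The mean number of matches per window was 1.75 for the genes that fell and 1.71 for those that rose, with 1.3 over all windows. The mean of the genes that rose rests largely on LINC01001 and LINC01061, whose windows are 97.3% identical and held 4 each. The other windows of genes that rose held 0 to 2. For the genes that fell, the mean rests largely on LINC00601, which held 6, and their other windows held 0 to 3. LINC00341, which fell most, held 0, but this is the window of SYNE3, its current name. Whether the LINC00341 cluster reads a transcript from that start was not tested. Windows of 5 called genes are printed as examples of the range of matches. They are from RefSeq (GRCh38.p14), 5′ to 3′ on the gene's own strand, with each CANNTG in capitals. LINC00601 (chr10:126421830-126422129, minus strand) held 6, LINC01686 (chr1:182614890-182615189, plus strand) 3, LINC00545 (chr13:30882312-30882611, plus strand) 1, LINC00941 (chr12:30795431-30795730, plus strand) 2 and LINC00294 (chr11:33075900-33076199, plus strand) 0. The first 3 genes fell and the last 2 rose, and these examples do not stand for their groups.
LINC00601: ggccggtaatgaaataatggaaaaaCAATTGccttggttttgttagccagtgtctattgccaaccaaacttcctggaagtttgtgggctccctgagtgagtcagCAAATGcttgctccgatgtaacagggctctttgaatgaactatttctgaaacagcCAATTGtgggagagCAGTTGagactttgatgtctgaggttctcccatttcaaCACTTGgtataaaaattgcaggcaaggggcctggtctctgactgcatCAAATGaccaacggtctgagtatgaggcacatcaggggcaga
LINC01686: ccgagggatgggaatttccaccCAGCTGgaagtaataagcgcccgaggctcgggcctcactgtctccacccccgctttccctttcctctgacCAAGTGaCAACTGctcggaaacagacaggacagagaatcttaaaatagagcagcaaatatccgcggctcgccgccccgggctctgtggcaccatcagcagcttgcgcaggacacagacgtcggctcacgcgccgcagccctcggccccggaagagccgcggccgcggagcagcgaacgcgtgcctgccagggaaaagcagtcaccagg
LINC00545: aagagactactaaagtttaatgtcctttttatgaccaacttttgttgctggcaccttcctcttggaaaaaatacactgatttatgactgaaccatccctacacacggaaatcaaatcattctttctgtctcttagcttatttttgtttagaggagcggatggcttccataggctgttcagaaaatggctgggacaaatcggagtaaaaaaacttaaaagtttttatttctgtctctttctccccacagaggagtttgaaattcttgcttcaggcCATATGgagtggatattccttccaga
LINC00941: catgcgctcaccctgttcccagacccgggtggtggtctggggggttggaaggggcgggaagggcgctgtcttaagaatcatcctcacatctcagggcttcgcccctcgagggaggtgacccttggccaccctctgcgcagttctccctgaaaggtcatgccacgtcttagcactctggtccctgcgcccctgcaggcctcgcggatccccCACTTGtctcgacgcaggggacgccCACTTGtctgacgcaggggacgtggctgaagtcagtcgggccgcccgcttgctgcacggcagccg
LINC00294: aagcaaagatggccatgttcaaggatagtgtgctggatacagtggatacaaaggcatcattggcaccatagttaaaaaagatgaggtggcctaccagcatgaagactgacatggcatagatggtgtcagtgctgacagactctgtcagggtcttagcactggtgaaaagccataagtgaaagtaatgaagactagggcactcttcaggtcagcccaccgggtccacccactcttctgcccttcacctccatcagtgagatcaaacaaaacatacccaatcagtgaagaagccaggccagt

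Of 142 members that RefSeq lists as long noncoding RNA genes and that had a window, 9 (6.34%) started head to head with a protein-coding gene within 1000 bases. None of these 9 was called (limma), and of 8 measured partners 2 were, TNFAIP2 beside LINC00677 at -0.34 and GOLGA7B beside LINC00866 at -0.40, while LINC00677 changed by -0.01 and LINC00866 by 0.03. These are few genes beside the 10.0% of members and 8.18% of protein-coding genes called overall.

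Below the level limit 3 of 336 LINC genes (0.893%) were called, against 1.58% of all genes below it. LINC00948, now MRLN, encodes myoregulin, a micropeptide that inhibits the calcium pump SERCA in skeletal muscle. It measured 4.81, 4.97 and 4.83 in RH30-SR cells and 3.55, 3.29 and 3.39 in MyoDΔ cells, with no overlap and a change of -1.46 ± 0.08 (adjusted p = 1.45e-04, limma). LINC00312 changed by -0.97 ± 0.16 (adjusted p = 0.0152, limma), a call lost without RH30-SR replicate 1 or 3 (adjusted p = 0.0532 and 0.0613). LINC00922, named after its values were seen, changed by 0.35 ± 0.06 (adjusted p = 0.022, limma), a call lost without any 1 array (adjusted p between 0.055 and 0.0756).

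Genes from 3 lists were set beside the members. Of 39 genes first named LINC to which a role has been ascribed, 30 were measured, of which 3 rose (LINC00520, LINC01554 and LINC00265), 2 fell (LINC00948 and LINC00312) and 25 were not called, with a median change of 0.01 against -0.01 over all genes, of which 7.01% were called. Of 48 long noncoding RNA genes with a name of their own, 24 were measured and 1 was called, MEG3, an imprinted noncoding RNA of muscle and other tissues, at 7.92, 7.91 and 7.90 against 8.36, 8.31 and 8.39 (0.44 ± 0.05, adjusted p = 0.00293, limma). Its groups were tight and separate, and the median of that list was -0.01. Of 10 genes first annotated as noncoding that encode a small protein, 5 were measured and LINC00948 was the only one called. Its list had a median of -0.08, and 4 members were not called.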

How the data were processed

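Total RNA of 6 samples was hybridised to 1-colour Affymetrix Human Transcriptome arrays. The deposited values are log2 levels per transcript cluster that the authors made with RMA (background correction, quantile normalization and median polish), using Affymetrix Expression Console by the submitters' processing notes. The methods of the study instead name the RMA function of the R package oligo. For versions and the genome build the sources used here give nothing. Quantile normalization hides a change shared by most transcripts. The table held 65535 clusters, from 0.91 to 13.82, with array medians of 4.27 to 4.31. No background measure was used, detection was therefore not judged, and the number of arrays limits the precision. The 6 columns of a second table with equal values were not used, since their names could not be matched to sample titles.

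The platform annotation gave 1 symbol to 22758 clusters, several to 1389 (left unnamed) and none here to 41388. A symbol of LINC plus digits made a LINC gene. Current names, gene order and promoter windows came from RefSeq (GRCh38.p14). Windows were aligned locally with Biopython 1.88.

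RH30-SR MyoDΔ minus RH30-SR was fitted with limma 3.58.1 (lmFit and eBayes) in R 4.3.3 on all 65535 clusters, with group as the only term. The call asked for an adjusted p (Benjamini-Hochberg over all clusters, two-sided test) below 0.05 with a change of more than 25%, both taken from the methods of the study. Changes are given with the moderated SE. The procedure was tested on simulated data with known changes. It recovered 17 of 67 changes of 0.4 on the log2 scale, 55 of 67 of 1 and 66 of 66 of 2. Of the 145 clusters it called, 7 were false. Changes as small as 0.4 were thus mostly missed. The rule named MYOD1, every called member up to 20 a direction, members of highest level and at the level limit, members of the list of LINC genes with a role, members whose clusters disagree, called neighbours and called genes of the other lists. The members and lists were chosen with earlier results of these data known.

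Alternatives were 3 renormalizations, a mean-variance trend with robust fit, array weights, a replicate block, leaving out each array, fits on fewer clusters, and other limits. Reading the second table as an alternative was not run.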

Additional observations from a re-analysis of the deposited data

How the results depend on the processing

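The limma fit was repeated in 14 ways. Of the 20 called members, 13 kept their call in all 14, 7 lost it in at least 1 (LINC00273, LINC03033, LINC00265, LINC01001, LINC01061, LINC01881 and LINC00526) and 0 changed sign. Without any 1 array the number called lay between 14 and 18 (main 20), higher between 7 and 10 (main 12) and lower between 6 and 9 (main 8), with the lowest number of higher genes without MyoDΔ replicate 2. Past a 2-fold change 5 were called, 1 higher and 4 lower. With no level limit 23 were called. A further 2 settings were chosen after seeing the data: without members that RefSeq lists as coding genes or pseudogenes 19 were called, and without members with near-identical promoters 18.

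Deviations of same-numbered arrays from their group means correlated at -0.05, -0.04 and 0.03, and those of differently numbered arrays at -0.11 to 0.12. The labels do not say whether same-numbered arrays were prepared together. With 3 arrays a group these correlations cannot decide it. With the replicate block 15 members were called, 8 higher and 7 lower, the calls of LINC00273, LINC03033, LINC01001, LINC01061 and LINC01881 being lost, and MYOD1 changed by -2.34.

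The list of LINC genes with a role had 3 called genes (main 5) with only clusters of 4.3 or more in the fit, where the small-protein list had 0 (main 1). The list of named noncoding RNAs had 1 called gene in the main fit, 2 after quantile normalization, with the trend, with 1 cluster per symbol and with clusters of 4.3 or more, 3 with array weights, and between 1 and 3 without 1 array (3 without RH30-SR replicate 2). The number of genes whose clusters disagreed (main 1) was 0 after cyclic loess, median centring or quantile normalization, 2 with array weights, and between 0 and 1 without 1 array. The cause was not tested in any of these. No signal over background was measured, so that its limit on the calls is not known.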
